A study of Mus musculus with 27 samples.

Results

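Day 2 after transfer was examined as the intermediate stage of monocyte differentiation in the inflamed small intestine. The samples were chosen by their labels alone, as the 4 manipulated recipients taken at day 2, and they were set against the 5 manipulated recipients of day 1 and the 4 of day 5, 13 of the 27 samples of the series. Every one of the 57 genes with values, out of 67 on the panel, was followed over the 3 days in order to see whether its change fell before or after day 2. The donor cells were CD11b+Ly6C+ monocytes from the bone marrow of C57BL/6 WT mice carrying CD45.2, and all recipients were CD45.1+ C57BL/6 mice lacking CCR2 (CCR2-/-), so that their own monocytes largely stay in the bone marrow. In manipulated recipients the small intestine had been handled mechanically, through an incision of the abdomen, 1 day ahead of the transfer. These mice alone also received ketamine and xylazine as anaesthetics and drank Novalgin, an analgesic, in the first 3 days after surgery, so that it had ended before day 5. Non-manipulated recipients received the same cells without surgery and were taken at the same days. From each mouse 100 cells of donor origin were taken by sorting from the lamina propria, and the panel's transcripts, after pre-amplification, were read on the NanoString nCounter, an instrument that counts barcoded probes without sequencing. In such pools of cells, fewer cells of a type and less RNA per cell cannot be told apart.

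Ly6C+ monocytes that enter the gut wall normally pass through a series of stages: they give up Ly6C, CCR2 and the homing molecules of blood cells, take up MHC class II, and then gain the scavenger and chemokine receptors of resident macrophages. In inflamed tissue such cells also make cytokines such as IL-6 and IL-1, and sense bacterial products through Toll-like receptors, their co-receptor CD14, NOD2 and the amplifying receptor TREM-1. A sample taken between the first and the last day shows which of these programmes has already moved.

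The depth and the lanes come before the results because the lanes fell into kinds. The 57 genes summed to between 799142 and 1347007 counts per manipulated sample (median 1147774), and 55 to 57 of them lay above the background of the lane, which ran from 16.75 to 49.82 counts. In the raw table the values of mice 3 and 4 of every group were multiples of 1.333, and those of manipulated day 1 mouse 5 were multiples of 2, whereas the other lanes held plain counts. Mice 3 and 4 differed from the other mice of their day in more than this step: at day 1 both lay above all the other mice in 17 of the 57 genes and below them in 9, at day 2 the counts were 18 and 7, and at day 5 they were 25 and 12. Which experiment each mouse came from is not given in the labels, so the leading steps and most of the called net changes are also given within mice 3 and 4 and within the other mice. Manipulated mice 3 and 4 were closer to each other than any other pair of their day. The chi-square between their counts, per degree of freedom, was 637, 216 and 848 at days 1, 2 and 5. The lowest of the other pairs had 2190, 2760 and 2370. Each day within mice 3 and 4 rests on these close samples, so small p-values there may understate the spread between mice. The pooled test also counts them as separate mice, so its p-values share this limit. When mouse 3 or 4 is omitted, its close partner stays in the fit. The reason for the closeness was not tested. A level is printed as a scaled count, that is, the count over the geometric mean of Actb, Gapdh and Rpl19 in the lane, times the mean of that quantity over the series. The sorted cells carried the monocyte and macrophage genes Csf1r, Cd68, Adgre1, Fcgr1 and Spi1 above background in every manipulated sample. The same held for 53 of the 57 genes, so this alone does not identify the cells. Of the genes listed for other cell types the panel held Ccr7 for dendritic cells and 0 for neutrophils, eosinophils, lymphocytes, epithelium and stroma, so their part was not tested. Ccr7 too was above background in every manipulated sample (921 to 11350 scaled counts).

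Between days 1 and 5 cells of the manipulated gut changed in 23 of 57 genes (40.4% of the genes tested, 13 higher and 10 lower), but single steps to and from day 2 passed the test in few. The split between higher and lower depended on the scaling, with 2 higher and 12 lower with the authors' factor as the scale and 3 and 11 with limma on the authors' values. Under these settings 2 and 3 of the 13 higher genes still passed, and all 10 lower ones did under both. Of the 23, 9 passed both within mice 3 and 4 and within the other mice, and Card9, Ccl2 and Nod2 passed in neither. Day 2 differed from day 1 in 1 gene (1.75%), Il6, which was lower, and 10 genes had an unadjusted p below 0.05. Day 5 differed from day 2 in 3 genes (5.26%), Ccl8 and Cd14 being higher (3.51%) and Trem1 lower (1.75%), with 14 at an unadjusted p below 0.05. Adjusted p-values are from edgeR's quasi-likelihood test with Benjamini-Hochberg adjustment over the 57 genes, unless limma or DESeq2 is named. Both steps share the day 2 samples, so that a day 2 value that is high or low by chance moves the steps in opposite directions. The median log2 change over all genes was -0.16 for day 2 over day 1, 0.42 for day 5 over day 2 and 0.17 for day 5 over day 1. It depended on the scaling, from -0.52 with the authors' factor to 0.11 with the total count for the first step, and from -0.29 with the authors' values to 0.42 with the housekeeping genes for the second.

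The step that ended at day 2 was led by Il6, the gene of a cytokine that drives the acute phase response. Its scaled counts at day 1 were 2810, 1293, 452, 1207 and 3714 in mice 1 to 5. At day 2 they were 299.7, 341, 163 and 238, and at day 5 they were 247, 85.3, 49.6 and 30.45. Every day 2 sample lay below every day 1 sample, while day 5 mouse 1 lay within the range of day 2. Il6 fell by 2.86 ± 0.66 on the log2 scale at day 2 against day 1 (SE, n = 4 and 5, adjusted p = 0.0111). Within the other mice the log2 change was -3.02 (adjusted p = 0.0378) and within mice 3 and 4 it was -2.05 (adjusted p = 0.283). The call was lost without day 2 mouse 3 (-2.69, adjusted p = 0.0735) or without day 2 mouse 4 (-2.82, adjusted p = 0.0572). It was also lost with TMM scaling (-2.64, adjusted p = 0.0503) and with only the 13 manipulated samples in the fit (-2.86, adjusted p = 0.0581). The net change of Il6 between days 1 and 5 was -4.20 ± 0.70 (adjusted p = 0.000176). It was -4.37 within mice 3 and 4 (adjusted p = 0.00678) and -3.97 within the other mice (adjusted p = 0.00466). Day 5 against day 2 gave a further log2 difference of -1.34 ± 0.64 (adjusted p = 0.189), so that 68.1% of the net change had been reached at day 2. Only 3 of the 4 day 5 samples lay above background, which leaves the second step and this share uncertain. In non-manipulated recipients Il6 ranged from 20.96 to 153 scaled counts over the 3 days, a range that holds 3 of the 4 manipulated samples of day 5 and none of day 2. That range reaches the background, with 4 of 5, 4 of 5 and 3 of 4 non-manipulated samples above it at days 1, 2 and 5.

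**Figure D1:**
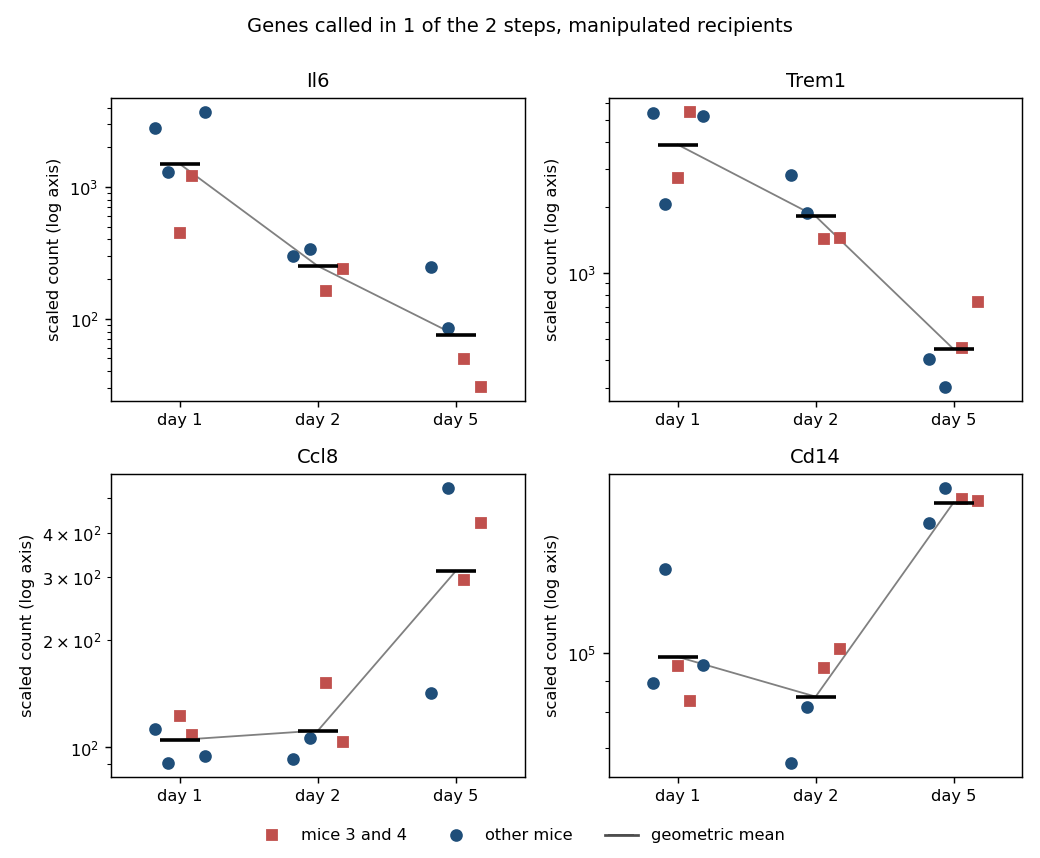
Scaled counts (log axis) of Il6, Trem1, Ccl8 and Cd14 in each manipulated recipient at days 1, 2 and 5. Squares are mice 3 and 4, circles the other mice and horizontal bars geometric means. Il6 is lower in all 4 day 2 samples than in any day 1 sample, Trem1 is lower and Cd14 higher in all 4 day 5 samples than in any day 2 sample, and Ccl8 at day 5 overlaps day 2 through mouse 1.

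The promoters of the genes called in a single step and held by the reference table are shown to give the sequence upstream of a gene called lower in the first step (Il6), a gene called lower in the second (Trem1) and a gene called higher in the second (Ccl8). Each line is the 250 bases before the RefSeq transcript start (GRCm38.p6, plus strand, chr5:30012864-30013113, chr17:48232489-48232738 and chr11:82114935-82115184). Capitals mark matches, on either strand, to 4 short motifs: GGG and TTTCC with 2 bases between them (kappaB-like), TTGC and AA with 2 bases between them (C/EBP-like), TGA and TCA with 1 base between them (AP-1-like), and GAAA repeated after 2 bases (interferon-response-like). No matches overlapped.
Il6: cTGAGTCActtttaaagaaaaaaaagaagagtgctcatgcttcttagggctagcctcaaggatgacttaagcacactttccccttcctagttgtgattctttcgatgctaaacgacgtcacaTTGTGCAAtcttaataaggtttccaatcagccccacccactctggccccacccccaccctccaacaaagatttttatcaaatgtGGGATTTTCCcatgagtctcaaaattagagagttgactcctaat
Trem1: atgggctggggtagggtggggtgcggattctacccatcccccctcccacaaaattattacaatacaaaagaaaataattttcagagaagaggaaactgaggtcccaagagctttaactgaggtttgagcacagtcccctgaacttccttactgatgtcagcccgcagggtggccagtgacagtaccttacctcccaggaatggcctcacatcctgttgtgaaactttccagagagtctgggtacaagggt
Ccl8: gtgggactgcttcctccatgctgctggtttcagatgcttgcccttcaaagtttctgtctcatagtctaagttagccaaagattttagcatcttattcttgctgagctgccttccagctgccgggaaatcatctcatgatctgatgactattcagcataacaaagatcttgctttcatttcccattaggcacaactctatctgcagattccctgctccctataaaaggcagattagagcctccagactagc
The Il6 window held a kappaB-like match beginning 44 bases before the start, a C/EBP-like match at 128 and an AP-1-like match at 249. The other 2 windows held none of these letters. Of 27025 mouse promoters of the same length, 1.4% held the kappaB-like letters, 9.55% the C/EBP-like, 6.87% the AP-1-like and 3.04% the interferon-response-like letters. Among the 37 tested panel genes with such a promoter, the shares in the same order were 8.11%, 10.8%, 18.9% and 5.41%. A match is a description of the sequence and says nothing of binding in these cells.

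Behind Il6, the genes with the next smallest p-values between days 2 and 1 did not pass the pooled test. Ly6c1 encodes a Ly6C antigen of inflammatory monocytes. At day 1 it had 47250, 10400, 602, 676 and 27090 scaled counts, at day 2 it had 254, 559.5, 106 and 69.78, and at day 5 35.1, 45.65, 42.1 and 57.6. The 3 days did not overlap, although mice 3 and 4 of day 1 stood far below the other mice of that day and 3 of the 4 day 5 samples were not above background, which leaves the size of the change uncertain. Its log2 difference was -6.12 ± 1.97 at day 2 against day 1 (adjusted p = 0.132), -6.12 within the other mice (adjusted p = 0.0378) and -2.86 within mice 3 and 4 (adjusted p = 0.485). With only the 13 manipulated samples in the fit it was the 1 gene called in this step (-6.12, adjusted p = 0.0252). Its net change was -3.68 within mice 3 and 4 (adjusted p = 0.241) and -9.44 within the other mice (adjusted p = 0.00466).

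Mrc1, the mannose receptor of tissue macrophages, had 73.1, 69.0, 561, 603 and 57.3 scaled counts at day 1, then 1852, 340.5, 1518 and 908 at day 2 and 252, 559, 2014 and 3452 at day 5. Day 1 was split by the lanes, with mice 3 and 4 above the lowest day 2 sample and the other mice near background. The log2 difference of day 2 over day 1 was 2.08 ± 0.76 (adjusted p = 0.145), with 4.04 within the other mice (adjusted p = 0.00908) and 1.06 within mice 3 and 4 (adjusted p = 0.283). Siglec1, a sialic acid-binding receptor of macrophages, showed the same split. It had 58.8, 83.8, 2873, 6682 and 51.85 scaled counts at day 1, 3742, 6517, 11820 and 11100 at day 2, and 6233, 16380, 23090 and 23500 at day 5. Its log2 difference at day 2 against day 1 was 2.09 ± 1.04 (adjusted p = 0.262), 6.30 within the other mice (adjusted p = 0.00106) and 1.26 within mice 3 and 4 (adjusted p = 0.308). Day 2 lay above all of day 1 in neither receptor, since day 1 mice 3 and 4 overlapped day 2 in Mrc1 and day 1 mouse 4 in Siglec1.

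Cd80, a co-stimulatory ligand for T cells, was the remaining gene called within the other mice (-2.11, adjusted p = 0.0378), against -0.37 within mice 3 and 4 (adjusted p = 0.792). At day 1 it had 27380, 51960, 18930, 28110 and 40530 scaled counts, at day 2 4790, 13770, 18050 and 18290, and at day 5 16610, 25380, 14400 and 23210. Day 2 lay below day 1 without overlap and the pooled log2 difference was -1.28 ± 0.44 (adjusted p = 0.137). Itgb7, the integrin chain that takes leukocytes to the gut, likewise lay lower at day 2 in every sample (718 to 3049) than at day 1 (4084 to 14960), with a log2 difference of -1.92 ± 0.71 (adjusted p = 0.145). In all, 6 genes had day 2 samples entirely below day 1 (Ccl2, Cd80, Il1b, Il6, Itgb7 and Ly6c1) and 0 entirely above, and 1 of the 6 passed the test, against 1.75% of all genes. The alternative test DESeq2, with the same scaling, called 5 genes in this step, Il6, Ly6c1, Itgb7 and Cd80 being lower and Mrc1 higher.

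The step after day 2 was led by Ccl8, a chemokine gene for monocytes and other leukocytes. It had 113, 90.55, 122, 108.5 and 94.4 scaled counts at day 1, 92.6, 106, 151 and 104 at day 2, and 142, 533, 294 and 426 at day 5. Days 1 and 2 overlapped, and at day 5 mouse 1 lay inside the range of day 2 while mice 2 to 4 lay above it. Ccl8 rose by 1.62 ± 0.34 on the log2 scale at day 5 against day 2 (SE, n = 4 and 4, adjusted p = 0.0035), after a difference of 0.10 ± 0.31 between days 2 and 1 (adjusted p = 0.857). The change was 1.50 within mice 3 and 4 (adjusted p = 0.0392) and 1.76 within the other mice (adjusted p = 0.0894). It passed without each single sample, but not with the authors' factor as the scale (1.14, adjusted p = 0.222) or with limma on the authors' values (0.93, adjusted p = 0.376). In non-manipulated recipients Ccl8 ran from 93.2 to 199 scaled counts at day 5 and from 71.66 to 138 at day 2.

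Cd14, the lipopolysaccharide co-receptor, rose after day 2 and was not called before it. Its scaled counts were 89260, 136600, 95060, 83350 and 95530 at day 1, 66230, 81620, 94410 and 101400 at day 2, and 162500, 185000, 177600 and 176200 at day 5. The 4 samples of day 5 lay close together and above every earlier sample. The log2 change at day 5 against day 2 was 1.03 ± 0.28 (adjusted p = 0.0333), after -0.22 ± 0.27 between days 2 and 1 (adjusted p = 0.777). It was 0.85 within mice 3 and 4 (adjusted p = 0.0977) and 1.23 within the other mice (adjusted p = 0.106), and the call was lost with the total count, Actb and Gapdh, TMM or the authors' factor as the scale and with limma on the authors' values, the direction holding under each. Without day 2 mouse 1 (0.92, adjusted p = 0.0984), day 2 mouse 2 (adjusted p = 0.0817), day 5 mouse 2 (adjusted p = 0.067) or day 5 mouse 3 (adjusted p = 0.0609) it did not pass either.

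Trem1, which amplifies Toll-like receptor signals in myeloid cells, fell in the second step. It had 5401, 2066, 2713, 5460 and 5250 scaled counts at day 1, 2806, 1894, 1435 and 1446 at day 2, and 405, 303, 455 and 738.5 at day 5. All day 5 samples lay below all day 2 samples, whereas days 2 and 1 overlapped. It fell by 2.00 ± 0.57 on the log2 scale at day 5 against day 2 (adjusted p = 0.0333), and the earlier difference of -1.14 ± 0.53 did not pass (adjusted p = 0.252). The net change of Trem1 between days 1 and 5 was -3.14 ± 0.58 (adjusted p = 0.000268), with -2.78 within mice 3 and 4 (adjusted p = 0.00678) and -3.58 within the other mice (adjusted p = 0.00712). Within mice 3 and 4 the second step was -1.27 (adjusted p = 0.136) and within the other mice -2.73 (adjusted p = 0.0805). The call was lost without day 2 mouse 1 (-1.74, adjusted p = 0.0984), day 2 mouse 2 (adjusted p = 0.0817), day 5 mouse 2 (adjusted p = 0.0906) or day 5 mouse 3 (adjusted p = 0.0653).

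In all, 5 genes had day 5 samples without overlap with day 2, Cd14 and H2-Ab1 being higher and Cd44, Ly6c1 and Trem1 lower, and 2 of the 5 passed the test, against 5.26% of all genes. Cd44, the hyaluronan receptor of activated leukocytes, had 6246, 2471, 2485, 4101 and 6847 scaled counts at day 1, 3498, 1525, 1628 and 1196 at day 2, and 367, 308, 386 and 966 at day 5. Its log2 difference was -1.95 ± 0.67 at day 5 against day 2 (adjusted p = 0.0731) and -1.18 ± 0.63 at day 2 against day 1 (adjusted p = 0.282). The net change of Cd44 was -3.13 ± 0.69 (adjusted p = 0.00135), with -2.28 within mice 3 and 4 (adjusted p = 0.0202) and -3.94 within the other mice (adjusted p = 0.0243). Retnla, an alternative activation gene, had the next smallest p in this step (5.64 ± 1.76, adjusted p = 0.0534). It stood at 10420 scaled counts in day 5 mouse 1 and between 29.5 and 84.5 in each of the other 12 manipulated samples, and without that mouse its net difference between days 5 and 1 was 0.18 (adjusted p = 0.964). Within mice 3 and 4, 6 genes passed between days 5 and 2, among them Adgre1, Ccl8, Csf1r and Cx3cr1, which were higher, and Itgb7, which was lower, and within the other mice Cxcl10 and Retnla were higher (log2 2.86 and 6.52, adjusted p = 0.0432 each).

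Whether a change lay more before or more after day 2 was tested directly by setting day 2 against the midpoint of days 1 and 5. The second step spans a longer time than the first, so the test compares the sizes of the steps and not their rates. Surgery came 1 day before the transfer in all these mice, so time in the tissue and time since surgery cannot be told apart. Nor can the end of Novalgin, which had been stopped before day 5, be told apart from the second step. No gene passed this test with edgeR, DESeq2 or limma, and 4 of 57 had an unadjusted p below 0.05 in edgeR, so that for no single gene were the steps shown to differ in size. The smallest p-values belonged to Ccl8, which stood 0.76 ± 0.29 log2 units below the midpoint at day 2 (log2 difference -0.76), Cd14 (-0.62 ± 0.25), Cd80 (-0.91 ± 0.40) and Spi1, the gene of the myeloid transcription factor PU.1 (-0.63 ± 0.28), all with an adjusted p of 0.489. Retnla came next (-2.90 ± 1.46, adjusted p = 0.538). Il6 stood at -0.76 ± 0.56 (adjusted p = 0.652). The values below therefore describe where day 2 stood and do not rank the genes.

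Among the 23 genes with a net change, day 2 lay between days 1 and 5 in 21, the exceptions being Cd14 and Retnla, and it did so in 35 of all 57 genes. The share of the net log2 change reached at day 2 had a median of 39.9%. For the 13 genes that were higher at day 5 than at day 1 (22.8% of genes) the median share was 36.3%, from -27.0% in Cd14 to 82.5% in Mrc1, and 10 of the 13 were below 50%. For the 10 lower genes (17.5% of genes) the median was 59.7%, from 13.7% in Chil3 to 95.9% in Itgb7, and 6 of the 10 were above 50%. These shares are ratios of the edgeR changes. Geometric means place day 2 differently in Itgb7, with 6886, 1787 and 806.3 scaled counts at days 1, 2 and 5. In Chil3 the kinds of lane differed in the first step, so its pooled share describes neither. Both steps had the direction of the net change in mice 3 and 4 and in the other mice in 15 of the 23 genes. The groups did not overlap between days 5 and 1 in 15 genes, 6 higher and 9 lower, and all 15 passed the test, against 40.4% of all genes.

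**Figure D2:**
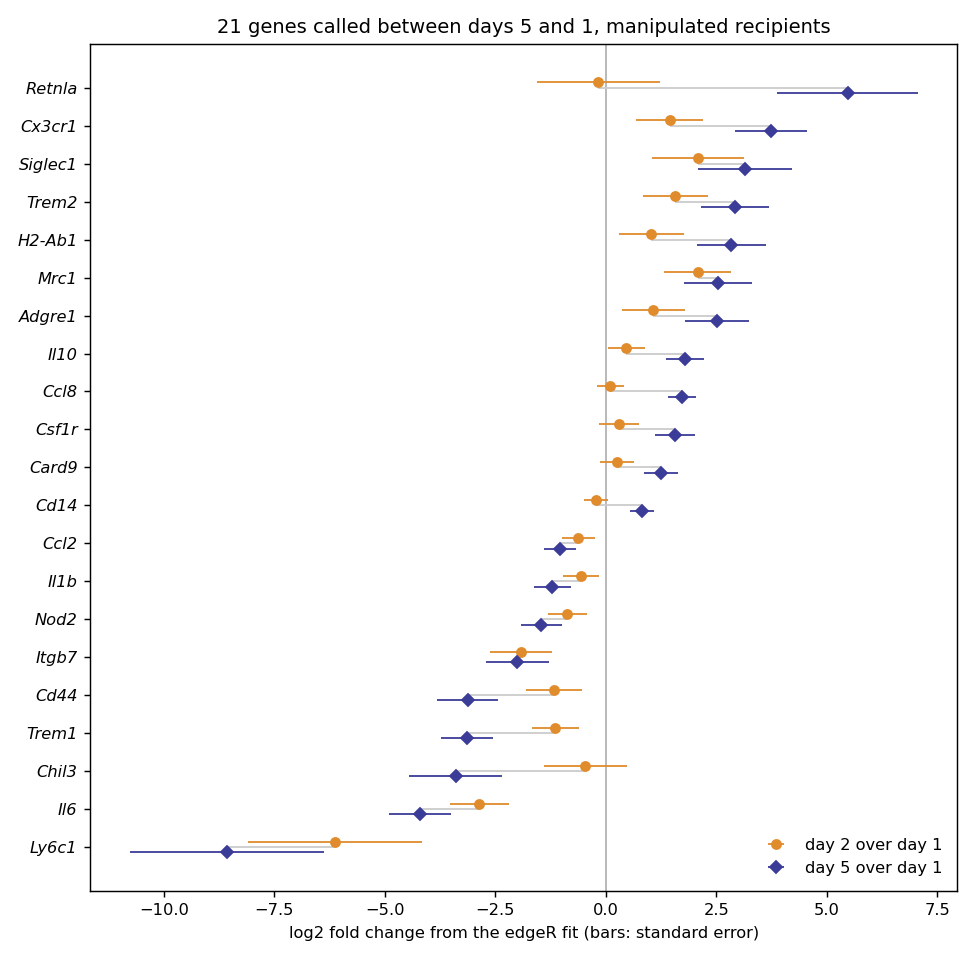
Log2 fold change over day 1 at day 2 (circles) and at day 5 (diamonds) for 21 of the 23 genes that differed between days 5 and 1 in manipulated recipients, with standard errors from the edgeR fit. Day 2 lies between 0 and the day 5 value in all but Cd14 and Retnla, close to 0 in Ccl8 and close to the day 5 value in Itgb7 and Mrc1.

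The genes of mature intestinal macrophages supplied 6 of the 13 genes with a net rise. Of 10 measured members, 6 rose between days 1 and 5 (Adgre1, Csf1r, Cx3cr1, H2-Ab1, Mrc1 and Siglec1), against 22.8% of all genes, and 0 fell. With the authors' factor as the scale Cx3cr1 alone of the 6 passed (2.88, adjusted p = 0.0151), and with limma on the authors' values H2-Ab1 and Siglec1 did. At day 2 against day 1 none passed, 9 had positive differences and the median was 0.95, against -0.16 over all genes. At day 5 against day 2 none passed, all 10 were positive and the median was 1.02, against 0.42 over all genes. The 4 members that did not pass between days 5 and 1 were Itgax (1.60, adjusted p = 0.073), Fcgr1 (0.69, adjusted p = 0.173), Il10ra (0.41, adjusted p = 0.567) and Cd68 (0.17, adjusted p = 0.907). Itgax passed with the kind of lane as a block (1.74, adjusted p = 0.031), with DESeq2 on housekeeping size factors (adjusted p = 0.041) and with limma on scaled counts (adjusted p = 0.0317).

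Cx3cr1, the fractalkine receptor of intestinal macrophages, had 180, 47.5, 128, 137 and 68.1 scaled counts at day 1, 210.5, 62.0, 552 and 389 at day 2, and 108, 656, 1854 and 3365 at day 5. Mice 3 and 4 were the highest at days 2 and 5, and mouse 1 of day 5 stayed within the range of day 1. Its net change was 3.74 ± 0.81 on the log2 scale (adjusted p = 0.00135), 38.4% of it by day 2. The net change was 4.30 within mice 3 and 4 (adjusted p = 0.000974) and 1.95 within the other mice (adjusted p = 0.175). H2-Ab1, an MHC class II chain, had 1752, 533, 30570, 53260 and 25480 scaled counts at day 1, 7763, 19750, 79520 and 74880 at day 2, and 170900, 172400, 109900 and 181000 at day 5. Day 5 stood above every day 2 sample, and mice 1 and 2 were the lowest of both earlier days. The net change was 2.83 ± 0.78 (adjusted p = 0.00774), 36.3% of it by day 2. The net change was 1.80 within mice 3 and 4 (adjusted p = 0.00678) and 4.21 within the other mice (adjusted p = 0.0106).

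Adgre1, which encodes the macrophage antigen F4/80, had 467, 112, 1167, 1713 and 596 scaled counts at day 1, 1284, 1762, 2184 and 1568 at day 2, and 725, 2248, 6164 and 9352 at day 5. The 4 day 2 samples were close together, at the top of the day 1 range or just above it, and day 5 spread to both sides of them. Its net change was 2.51 ± 0.73 (adjusted p = 0.0105), 42.5% of it by day 2. The net change was 2.43 within mice 3 and 4 (adjusted p = 0.00388) and 1.92 within the other mice (adjusted p = 0.143). Csf1r, the receptor for the macrophage growth factor CSF-1, had 16170, 4014, 15910, 19260 and 13460 scaled counts at day 1, 8010, 16580, 23210 and 19770 at day 2, and 9424, 25870, 54060 and 73130 at day 5. Its net change of 1.56 ± 0.46 (adjusted p = 0.0117) was reached to 18.9% at day 2 and did not pass without day 5 mouse 4 (1.11, adjusted p = 0.0688) or with only the 13 manipulated samples (adjusted p = 0.0509). It was 1.86 within mice 3 and 4 (adjusted p = 0.00388) and 0.65 within the other mice (adjusted p = 0.459). Mrc1 (2.53 ± 0.77, adjusted p = 0.0129) also depended on day 5 mouse 4 (1.79 without it, adjusted p = 0.0705), whereas Siglec1 (3.15 ± 1.07, adjusted p = 0.0202, 66.3% of it by day 2) passed without each single sample. Both passed within each kind of lane, with 2.23 and 2.61 for Mrc1 and 2.29 and 7.45 for Siglec1 in mice 3 and 4 and in the other mice. Neither passed with only the 13 manipulated samples in the fit (adjusted p = 0.0512 and 0.061).

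Early monocyte and adhesion genes ran the other way. Of 6 measured members, 4 fell between days 1 and 5, among them Cd44, Itgb7 and Ly6c1, against 17.5% of all genes, with a median net difference of -2.42 against 0.17 over all genes. The median was -1.55 at day 2 against day 1 and -0.82 at day 5 against day 2, against -0.16 and 0.42 over all genes, with 0 calls in either step, and all 6 were negative in the second. Itgb7 showed a second step of -3.56 within mice 3 and 4 (adjusted p = 0.00613) and 0.95 within the other mice (adjusted p = 0.408), so its pooled share of 95.9% rests on opposite values. Between days 1 and 5 Itgb7 fell by 2.00 ± 0.72 on the log2 scale (adjusted p = 0.0248), a call that was lost without day 1 mouse 5 (adjusted p = 0.0874), day 5 mouse 3 (adjusted p = 0.0565) or day 5 mouse 4 (adjusted p = 0.0705) and with only the 13 manipulated samples (adjusted p = 0.104). It was -4.86 within mice 3 and 4 (adjusted p = 0.00088) and -1.33 within the other mice (adjusted p = 0.178). Ccr2, the receptor that the donor cells carry and the recipients lack, had differences of 0.26 ± 0.49 (adjusted p = 0.857) and -0.81 ± 0.52 (adjusted p = 0.33) in the first and second step, and Ccr9 of 0.22 and -0.26.

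**Figure D3:**
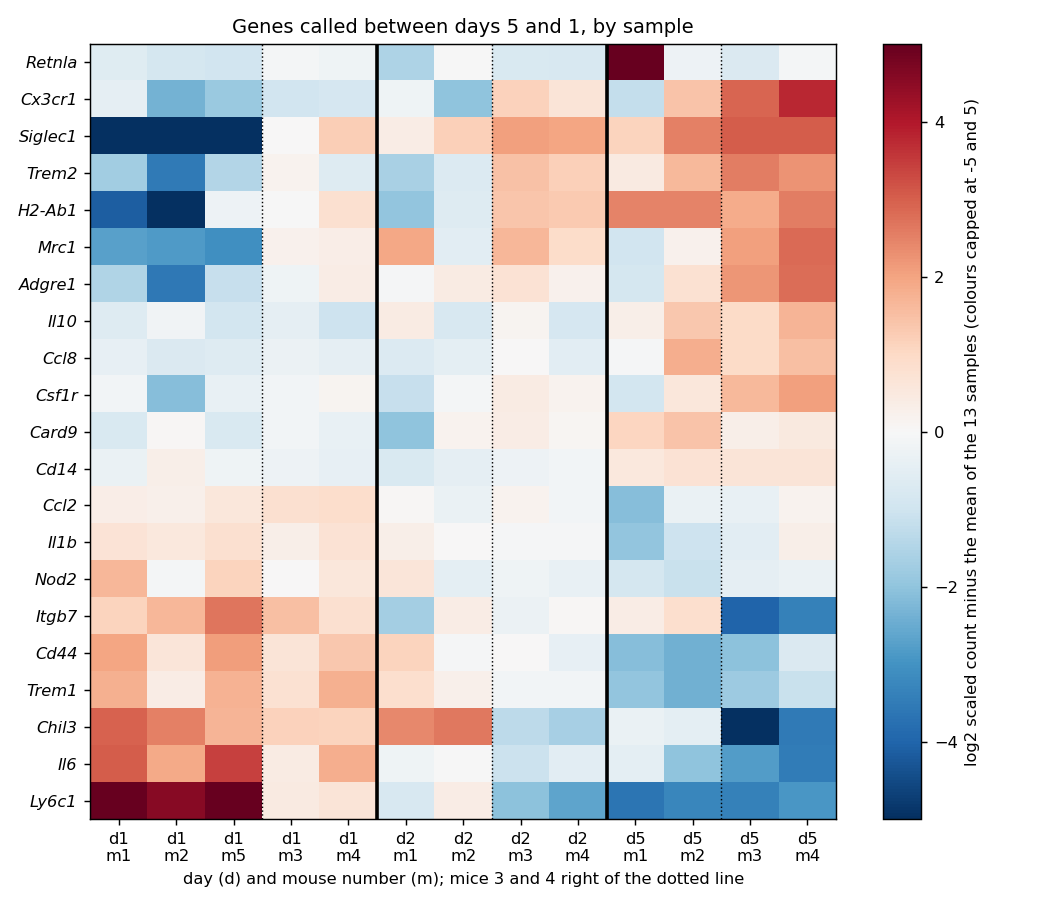
Of the genes that differed between days 5 and 1, 21 of 23 (rows, ordered by net change) in the 13 manipulated samples (columns, by day and mouse), as log2 scaled count minus the mean of the 13 samples. Solid lines part the days and dotted lines part mice 3 and 4 from the other mice, and the day 2 columns are paler than those of days 1 and 5 in most rows, with mice 3 and 4 of day 2 nearer the day 5 pattern in the macrophage genes.

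Proinflammatory cytokines were a mixed group. Of 5 measured members, Il6 fell by day 2, Il6 and Il1b were lower at day 5 than at day 1, and 0 were higher, so that 2 of 5 passed, against 40.4% of all genes. All 5 had a negative difference between days 2 and 1, with a median of -0.41 against -0.16 over all genes. Il1b, the gene of interleukin-1 beta, ranged from 71680 to 102200 scaled counts at day 1, from 55570 to 70400 at day 2 and from 14750 to 70410 at day 5, so that day 2 lay below all of day 1. Its net change of -1.21 ± 0.42 (adjusted p = 0.0211) was reached to 46.2% at day 2 and did not pass without day 5 mouse 1 (-0.94, adjusted p = 0.083) or day 5 mouse 2 (-1.09, adjusted p = 0.0632). It was -0.59 within mice 3 and 4 (adjusted p = 0.303) and -2.10 within the other mice (adjusted p = 0.0282). Il1a had differences of -0.40 ± 0.40 and 0.18 ± 0.41 in the first and second step and Tnf of -0.21 ± 0.53 and 1.07 ± 0.56, Tnf being split by the lanes in the second step (-0.76 within mice 3 and 4, 2.19 within the other mice). Between days 5 and 1 Tnf was lower within mice 3 and 4 (-0.86, adjusted p = 0.0464) and higher within the other mice (1.73, adjusted p = 0.0342). Il23a had -0.41 ± 1.01 and -1.33 ± 1.07.

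Among 4 myeloid-recruiting chemokines, Ccl8 rose and Ccl2 fell between days 1 and 5, 2 of 4 against 40.4% of all genes. The net change of Ccl8 (1.72) did not pass with the authors' factor as the scale (0.95, adjusted p = 0.111) or with limma on the authors' values (0.84, adjusted p = 0.199). Ccl2, the main ligand of CCR2, ranged from 17730 to 27100 scaled counts at day 1, from 11720 to 16650 at day 2 and from 3408 to 16690 at day 5, and day 2 again lay below all of day 1. Its net change was -1.04 ± 0.37 (adjusted p = 0.0248), 60.3% of it by day 2, and it did not pass without day 1 mouse 3 (adjusted p = 0.0515), day 1 mouse 4 (adjusted p = 0.0559) or day 5 mouse 1 (-0.74, adjusted p = 0.083), nor with only the 13 manipulated samples (adjusted p = 0.0597). It was -0.90 within mice 3 and 4 (adjusted p = 0.154) and -1.37 within the other mice (adjusted p = 0.106). Ccl7 had differences of -0.02 ± 0.76 and 0.20 ± 0.80, and Cxcl1, a neutrophil attractant, of 0.15 ± 0.43 and -0.24 ± 0.45, in the first and second step.

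Pattern recognition genes parted in direction. Of 7 measured members, Cd14 and Card9 rose and Trem1 and Nod2 fell between days 1 and 5, 4 of 7 against 40.4% of all genes. The median difference was -0.87 in the first step and 0.54 in the second, against -0.16 and 0.42 over all genes. The net call of Cd14 was lost under 7 of 16 alternatives, its log2 change being 0.04 with the authors' factor as the scale (adjusted p = 0.945). Card9, an adaptor of C-type lectin receptors, had 7625, 13250, 11530, 9986 and 7635 scaled counts at day 1, 3186, 14570, 16420 and 13560 at day 2, and 27290, 34070, 15870 and 18150 at day 5. Mice 2 to 4 of day 2 lay above day 1 and mouse 1 below it, and the net change of 1.25 ± 0.39 (adjusted p = 0.0136) did not pass without day 5 mouse 2 (1.03, adjusted p = 0.0538), with Actb and Gapdh as the scale or with the authors' factor (0.41, adjusted p = 0.572). It was 0.66 within mice 3 and 4 (adjusted p = 0.267) and 1.69 within the other mice (adjusted p = 0.0513). Nod2, a cytosolic sensor of bacterial peptidoglycan, had 9654, 2859, 3088, 4466 and 6476 scaled counts at day 1, 4575, 2158, 2603 and 2320 at day 2, and 1642, 1410, 2228 and 2409 at day 5. Its net change was -1.46 ± 0.46 (adjusted p = 0.0136), 59.1% of it by day 2, and -1.14 without day 1 mouse 1 (adjusted p = 0.0502). It was -0.70 within mice 3 and 4 (adjusted p = 0.224) and -2.05 within the other mice (adjusted p = 0.0648). Tlr4 and Traf6 stood at -1.01 ± 0.45 and -0.96 ± 0.42 at day 2 against day 1, both with an adjusted p of 0.252, and at 0.36 and 0.54 in the second step. Tlr2 had -0.50 ± 0.39 (adjusted p = 0.486) and 0.55 ± 0.41 (adjusted p = 0.397).

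The gene of the regulatory cytokine interleukin-10, Il10, had 11880, 16470, 13660, 9127 and 9869 scaled counts at day 1, 25200, 10770, 20570 and 10580 at day 2, and 22660, 47970, 36530 and 61070 at day 5. Mice 1 and 3 of day 2 were above all of day 1 while mice 2 and 4 were within it, and day 5 was above all of day 1. Il10 rose by 1.78 ± 0.43 between days 1 and 5 (adjusted p = 0.0032), 25.8% of it by day 2, with a second step of 1.33 ± 0.46 (adjusted p = 0.0731). The net change was 2.10 within mice 3 and 4 (adjusted p = 0.00901) and 1.47 within the other mice (adjusted p = 0.0966). It did not pass with the authors' factor as the scale (1.04, adjusted p = 0.153) or with limma on the authors' values (0.99, adjusted p = 0.199). The other 2 measured members of that pathway, Il10ra and Tgfb1, stood at -0.56 and -0.48 in the first step and at 0.97 and 0.50 in the second, and neither passed.

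The interferon-induced chemokine genes Cxcl9, Cxcl10 and Cxcl11, which attract activated T cells, had first-step differences of 2.02, -0.29 and -0.59 and second-step differences of 0.36, 1.58 and 0.71, and none passed.

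In the alternative activation list, Trem2 and Retnla were higher and Chil3 lower at day 5 than at day 1, 3 of 7 measured members against 40.4% of all genes, and Retnla rested on day 5 mouse 1. Trem2, a lipid-sensing receptor of tissue macrophages, had 1351, 388, 5036, 2926 and 1626 scaled counts at day 1, 1483, 2793, 12430 and 10270 at day 2, and 6223, 13800, 26420 and 21580 at day 5. Mice 3 and 4 of day 2 were within the day 5 range and mice 1 and 2 within that of day 1. Trem2 rose by 2.91 ± 0.77 (adjusted p = 0.00628), 54.1% of it by day 2. The net change was 2.59 within mice 3 and 4 (adjusted p = 0.00388) and 3.16 within the other mice (adjusted p = 0.0282). It did not pass with the authors' factor as the scale (1.88, adjusted p = 0.0845). Chil3, the chitinase-like protein Ym1 of monocytes and alternatively activated macrophages, had 151600, 110000, 42550, 41830 and 62300 scaled counts at day 1, 102100, 120200, 7905 and 6162 at day 2, and 15210, 13790, 139.6 and 1693 at day 5. At day 2 mice 1 and 2 were at the level of day 1 and mice 3 and 4 below it, and the first step was -0.47 ± 0.94 (adjusted p = 0.857) and the second -2.94 ± 1.06 (adjusted p = 0.0774). Within mice 3 and 4 the first step of Chil3 was -2.58 (adjusted p = 0.223), and within the other mice 0.04 (adjusted p = 0.979). Its net change was -3.40 ± 1.06 (adjusted p = 0.0136), with -5.52 within mice 3 and 4 (adjusted p = 0.00388) and -2.90 within the other mice (adjusted p = 0.0319). Arg1 had 0.93 ± 1.25 (adjusted p = 0.818) and -0.97 ± 1.34 (adjusted p = 0.632), with 4.04 within the other mice and -0.24 within mice 3 and 4 in the first step.

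The group of NF-kB genes (Nfkb1, Nfkb2 and Relb) and other inflammatory transcription factor genes (Irf5 and Cebpb) had 0 calls in any of the 3 comparisons of days. Of all genes, 1.75% were called at day 2 against day 1, 5.26% at day 5 against day 2 and 40.4% at day 5 against day 1. The log2 differences of the group ran from -0.76 to -0.05 at day 2 against day 1 and from -0.95 to 0.70 at day 5 against day 2. Cebpb was called lower between days 5 and 1 with Actb and Gapdh (-1.44, adjusted p = 0.0447) or the authors' factor as the scale (-1.92, adjusted p = 0.0479), with limma, with DESeq2's own size factors and within the other mice. Of 4 genes of antigen presentation and co-stimulation, H2-Ab1 passed between days 5 and 1, 1 of 4 against 40.4% of all genes. All 4 stood below the midpoint at day 2 and above day 2 at day 5. Most genes did so too, with 38 of all 57 below the midpoint and 37 of 57 above day 2 at day 5. The other members of the list were Cd80, Cd86 and Ccr7. Their differences at day 5 against day 2 were 0.54 ± 0.45, 0.72 ± 0.59 and 1.05 ± 0.76. The lists were written with earlier results of these data known, and their counts are descriptions.

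Each sample's profile over the 57 genes was also placed on the line from the day 1 mean (0) to the day 5 mean (1). Day 1 samples stood at -0.263, -0.211, 0.422, 0.425 and -0.218 in mice 1 to 5. The day 2 samples stood at 0.391, 0.354, 0.716 and 0.717, with a median of 0.554, and the day 5 samples at 0.562, 0.804, 1.13 and 1.10. Day 2 thus lay between the other days within mice 3 and 4 and within the other mice, although mice 3 and 4 of day 1 overlapped mice 1 and 2 of day 2, and day 5 mouse 1 lay below mice 3 and 4 of day 2. With the line drawn within each kind of lane, the median of day 2 was 0.375 in mice 3 and 4 and 0.529 in the other mice. The distance between mean log2 profiles was 10.1 between days 2 and 1, 8.78 between days 5 and 2 and 16.3 between days 5 and 1. Within mice 3 and 4 the first step (7.33) was shorter than the second (10.9), and within the other mice it was 13.1 against 12.2, so that the order of the steps was not the same in both. These positions are descriptions without a test.

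**Figure D4:**
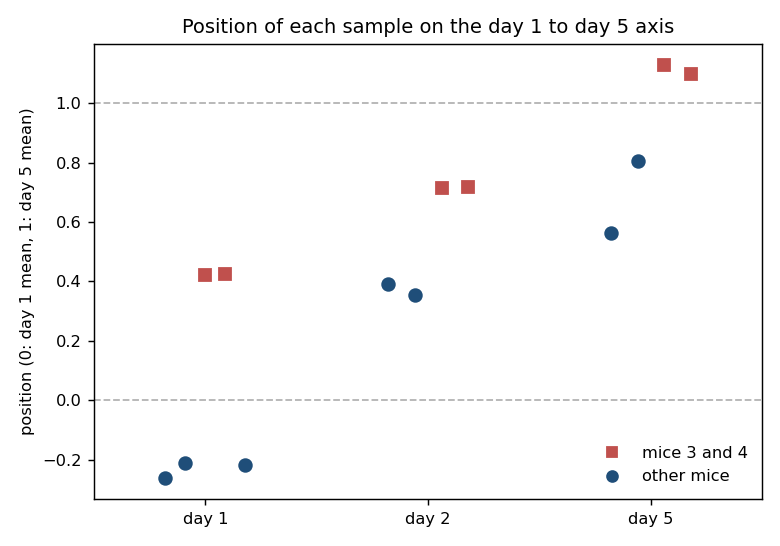
Position of each manipulated sample on the line joining the mean profile of day 1 (0) to that of day 5 (1), over 57 genes on the log2 scale, where a sample of day 1 or 5 is left out of its own mean. Squares are mice 3 and 4 and circles the other mice, and day 2 stands between 0.354 and 0.717, above day 1 and below day 5 within each kind of lane.

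The last question was whether the steps through day 2 belonged to the manipulated gut, and it was tested as the difference between the steps in manipulated and non-manipulated recipients. For the step from day 1 to day 2, 4 genes differed (7.02% of 57), all with a lower change in manipulated recipients: Il1a, Il6, Ccl7 and Il23a, genes of 3 cytokines and a monocyte-recruiting chemokine. For the step from day 2 to day 5 no gene passed with edgeR or limma, 7 had an unadjusted p below 0.05, and DESeq2 called Arg1 and Retnla. DESeq2 was run without its filter for single outlying samples. Among manipulated samples Retnla was high in day 5 mouse 1 alone (10420 scaled counts), and Arg1 ran from 69.97 to 33770 in non-manipulated recipients of day 2. In non-manipulated recipients by themselves 8 genes differed between days 2 and 1 (14%), of which 6 were higher (10.5%) and 2 lower (3.51%), and 7 between days 5 and 2 (12.3%), of which 2 were higher (3.51%) and 5 lower (8.77%).

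Il1a, the gene of interleukin-1 alpha, had 79420 to 109200 scaled counts at day 2 in manipulated recipients, against 106000 to 138600 at day 1. In non-manipulated recipients it had 36870, 57990, 10540, 51010 and 15460 at day 2, against 4000 to 9567 at day 1. The arms did not overlap at either day, and they stood closer at day 2. The change was -0.40 ± 0.40 in manipulated and 2.25 ± 0.39 in non-manipulated recipients, a difference of -2.65 ± 0.55 (SE, adjusted p = 0.00379). Il6 changed by -2.86 ± 0.66 in manipulated recipients and had 0.89 ± 0.57 in non-manipulated ones (adjusted p = 0.348), a difference of -3.76 ± 0.86 (adjusted p = 0.0053). Both differences passed without each single sample of the 4 groups, and within mice 3 and 4 neither passed (adjusted p = 0.156 for Il1a and 0.244 for Il6).

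Ccl7 had 19800, 8331, 19850 and 19150 scaled counts at day 2 in manipulated recipients, against 5106 to 25300 at day 1. Non-manipulated recipients had 443, 1503, 1691, 1248 and 5366 at day 2, against 58.2 to 361 at day 1. The difference of the steps was -3.99 ± 1.09 (adjusted p = 0.023), and it did not pass without manipulated day 2 mouse 2 (-3.77, adjusted p = 0.0717) or non-manipulated day 2 mouse 5 (-3.24, adjusted p = 0.0627). It was also lost with the total count as the scale (-3.64, adjusted p = 0.0614), with limma on the authors' values and within the other mice (-3.55, adjusted p = 0.265). Il23a, a subunit of interleukin-23, had 951, 1389, 579 and 2952 scaled counts at day 2 in manipulated recipients, against 146 to 6111 at day 1. Non-manipulated recipients had 878, 686, 50.2, 5933 and 61.1 at day 2, against 45.7 to 111 at day 1, so that 2 of the 5 stayed at the day 1 level. Its difference of -4.83 ± 1.47 (adjusted p = 0.0438) was lost in 10 of 19 omissions of a single sample, with -2.97 (adjusted p = 0.18) without non-manipulated day 2 mouse 4. It was also lost with the kind of lane as a block (-4.18, adjusted p = 0.0973) and under 9 of 15 alternatives in all. The lower change in manipulated recipients thus came, in Il1a, Ccl7 and Il23a, with a rise in non-manipulated recipients (adjusted p = 0.00028, 0.00126 and 0.00595) and no call in manipulated ones, and in Il6 with a fall in manipulated recipients.

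**Figure D5:**
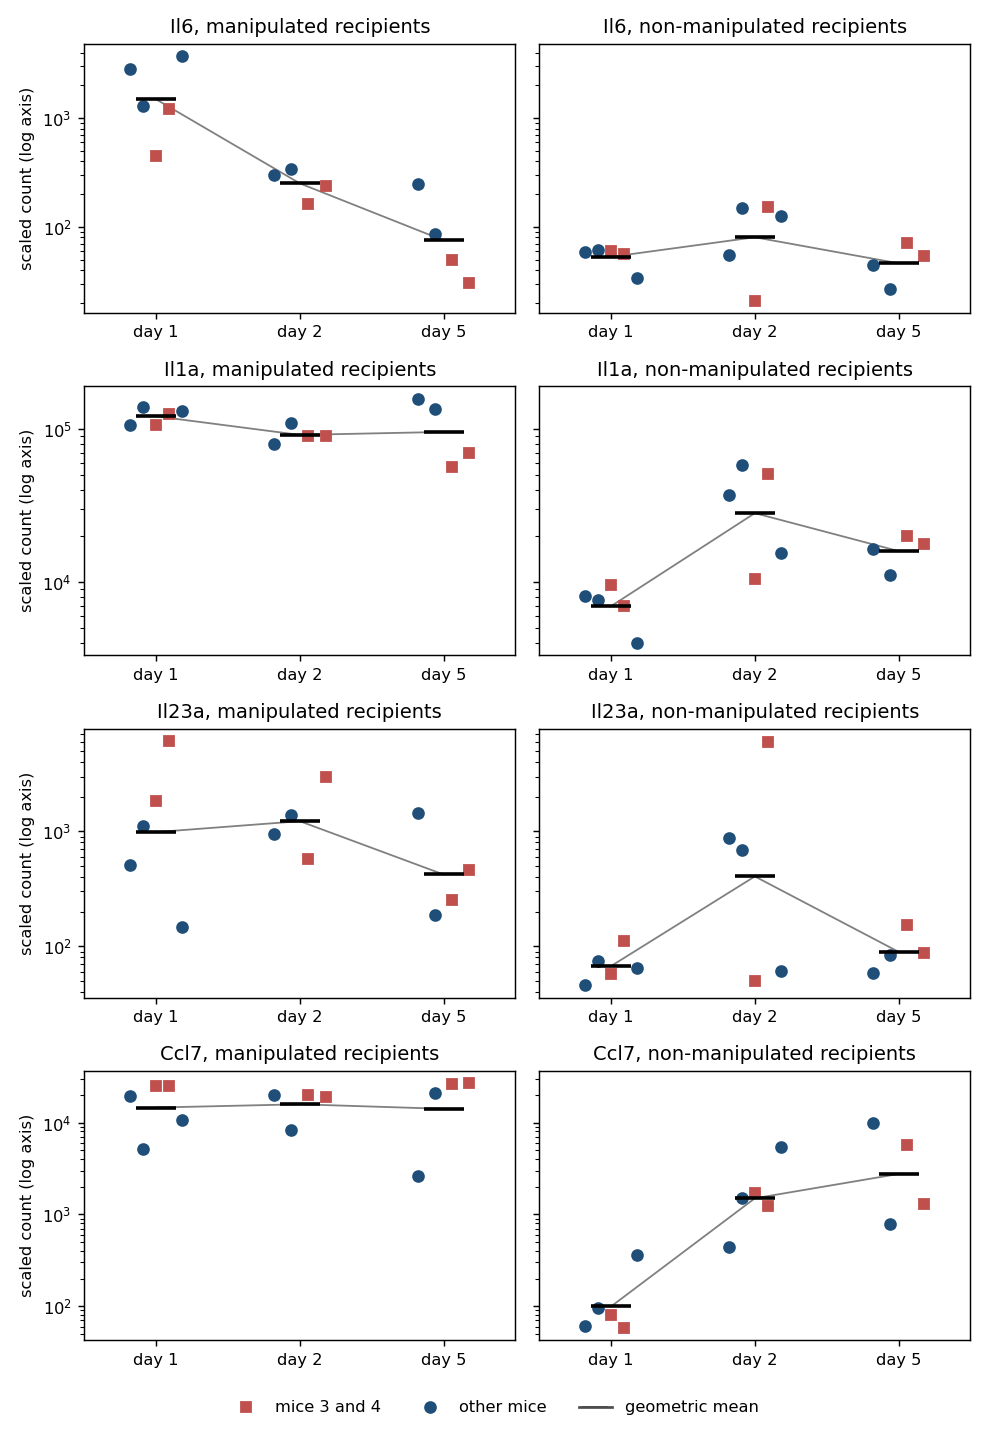
Scaled counts (log axis) of Il6, Il1a, Il23a and Ccl7 at days 1, 2 and 5 in manipulated (left) and non-manipulated recipients (right), with squares for mice 3 and 4, circles for the other mice and bars for geometric means. Il6 is lower at day 2 than at day 1 in the manipulated panel, while Il1a and Ccl7 are higher at day 2 than at day 1 in all non-manipulated samples.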

How the data were processed

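Donor-derived cells of 27 recipient mice were counted on the NanoString nCounter after reverse transcription and 16 cycles of pre-amplification. Of the table of raw values, 14 lanes held counts as deposited by the authors, 1 lane held counts multiplied by 2, and the 12 lanes of mice 3 and 4 held expected counts, as deposited, in multiples of 1.333 (tolerance 0.001). Each lane was divided by its step, and the reason for the steps is not given in the sources used here. The authors' normalized table held scores, each the raw value times 1 factor per sample (0.407 to 3.34), and served as an alternative. Of 67 panel genes, 10 were blank. Names came from the probe accessions for 57 of the genes and housekeeping genes and from the symbol for 3. Groups were taken from the titles and the day among the characteristics, since the free-text description gives day 1 for every sample. By its title each sample is a separate mouse.

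Counts were fitted in edgeR 4.0.16 (R 4.3.3) with 6 group means and the geometric mean of Actb, Gapdh and Rpl19 as library size (common biological coefficient of variation of 0.685, with 21 degrees of freedom left), with no filter on low counts. The quasi-likelihood F test was two-sided, p-values were adjusted over 57 genes by Benjamini-Hochberg, and the threshold was 0.05. The standard error is the log2 change divided by the square root of F. Genes past the threshold were named, with per-sample values for up to 20, and the 5 smallest p-values where fewer than 10 passed. Alternatives were other scales, limma 3.58.1, DESeq2 1.42.0, a filter or floor at background (mean plus 2 SD of 5 negative-control probes), blocks for lane and replicate number, and omission of samples. The fit was also run on simulated data that held no kinds of lane and no close pairs of mice, and nothing here rests on its outcome. Positions used log2 of the scaled count plus 1. Members and lists were chosen with earlier results of these data known. Promoter sequences are from RefSeq (GRCm38.p6). Pre-amplified copies are not independent molecules, so depth alone understates the error. Values of 2 genes are not reported here, although both stayed in the fits and counts.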

Additional observations from a re-analysis of the deposited data

Results flagged for a closer look

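In 7 of 78 groups of 4 or 5 manipulated samples, over the 26 genes examined, a single sample stood apart from the rest of its day by Dixon's criterion, which chance alone meets in about 1 of 20 groups. At day 2 these were Card9 in mouse 1 (3190 scaled counts, against 13560 to 16420 in the other mice) and Ccl7 in mouse 2 (8330, against 19150 to 19850). At day 5 they were Ccl7 in mouse 1 (2650, against 21150 to 26730), H2-Ab1 in mouse 3 (110000, against 170900 to 181000) and Retnla in mouse 1 (10400, against 51.5 to 79.4). At day 1 they were Cd14 (137000, against 83350 to 95530) and Csf1r (4010, against 13460 to 19260), both in mouse 2.

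The step from day 1 to day 2 differed between manipulated and non-manipulated recipients in Ccl7 (log2 difference -3.99, adjusted p = 0.023), Il1a (-2.65, adjusted p = 0.00379), Il23a (-4.83, adjusted p = 0.0438) and Il6 (-3.76, adjusted p = 0.0053), by edgeR's test of the difference itself.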

How the results depend on the processing

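For day 2 against day 1 the 1 call (Il6) became 0 with TMM and in mice 3 and 4. With only the 53 genes above background in every manipulated sample there were 0 calls, but Il6 was not among the 53 and so was not tested. The calls became 3 with limma on scaled counts (Il6, Mrc1, Siglec1), 5 and 3 with DESeq2 on housekeeping and on its own size factors, and 5 in the other mice. Omitting a sample gave 0 to 1. For day 5 against day 2 the 3 calls became 1 with the authors' factor, 5 with limma on the authors' values (all lower), 8 and 8 with DESeq2, and 6 in mice 3 and 4; omitting a sample gave 1 to 7. For day 5 against day 1 the split of 13 higher and 10 lower became 2 and 12 (14 calls) with the authors' factor and 3 and 11 (14 calls) with limma on the authors' values, where the median gene shifted to -0.72 and -0.49, against 0.17; omissions gave 21 to 24. The midpoint gave 0 calls throughout. For the first step, manipulated minus non-manipulated, the 4 calls became 2 with the total count, limma on the authors' values and mice 3 and 4 alone, and 2 to 4 under omissions. They also became 2 under the background filter, which had removed Il6 before the test. For the second step 0 became 2 with DESeq2 under both scalings (Arg1, Retnla), and omissions gave 0 to 0. The median position of day 2 ran from 0.391 to 0.716 under omissions. Retnla turned to -0.22 at day 5 against day 1 in mice 3 and 4. The cause of these shifts was not tested.

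Mice share replicate numbers, but the labels tie them to no litter or day, so the numbers were not taken as pairs in the main fit. Same-numbered mice of different days correlated in their deviations from -0.0817 to 0.574 (median 0.346, 12 pairs). Mice of other numbers had a median of 0.156 within a kind of lane (16 pairs) and -0.264 across the kinds (28 pairs). Same-numbered mice thus tended to deviate together, and the fit was repeated with the number as a block. With the replicate block the calls were 1, 4 and 21 for day 2 against day 1, day 5 against day 2 and day 5 against day 1, 0 for the midpoint, and 3 and 0 for the differences between arms. The calls lost with it were Itgb7 (-1.79, adjusted p = 0.0774) and Retnla (4.75, adjusted p = 0.093) at day 5 against day 1 and Il23a (-3.42, adjusted p = 0.148) in the first step between arms. Of 1095 values of single genes, 954 kept their direction and side of the threshold.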
